A study of Mus musculus with 2 samples.

Results

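The leukocyte immunoglobulin-like receptor genes Lilrb4a, Lilr4b, Pirb, Pira2 and Lilra5 were followed in the nuclear RNA of mouse bone marrow-derived macrophages, phagocytes grown from bone marrow cells. These 5 genes, of 55536 annotated genes, were found by their symbols, and they have 35 annotated transcripts. Lilrb4a and Lilr4b had come to notice for their high level in these same libraries, so all levels below are descriptions and carry no test. Ribosomal RNA-depleted total RNA came from C57BL/6J cells that received 100 ng/ml lipid A, the TLR4-activating part of lipopolysaccharide, for 12 h. A washout of 12 h and a further dose of 100 ng/ml for 90 min followed. The RNA is labelled nucleoplasmic in the sample text and nuclear in the source field. The 2 libraries form 1 group: the input was 1 µg of RNA for replicate 1 and 500 ng for replicate 2. They are called biological replicates, yet both carry the same donor entry, so their spread may be technical. No untreated, singly treated or cytoplasmic library was analysed here, and nothing below measures induction, tolerance or export.

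These receptors come in inhibitory and activating forms that share similar immunoglobulin-like domains outside the cell. Inhibitory forms carry immunoreceptor tyrosine-based inhibitory motifs (ITIMs) in a long cytoplasmic tail, and the phosphorylated tyrosines recruit the phosphatases SHP-1, SHP-2 and SHIP-1. Activating forms have a short tail and signal through adaptors such as the Fc receptor gamma chain. Lilrb4a (also gp49B) and Pirb are inhibitory, Pira2 and Lilra5 are activating, and Lilr4b (also gp49A) has no ITIM-bearing tail. Pirb and the Pira receptors bind MHC class I molecules, and Pirb also binds myelin inhibitors such as Nogo. An αvβ3 integrin has been described as a ligand of the gp49B receptor.

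Gene counts summed to 29400104 in replicate 1 and 17789543 in replicate 2. Levels are in TPM, a length-corrected share of all transcripts in a library, from RSEM, which splits reads shared between transcripts by a model. Genes can therefore be compared within a library. Where values stand in pairs, replicate 1 comes first and replicate 2 follows. All 8 macrophage markers reached 1 TPM in both libraries, led by Lyz2, Adgre1 and Csf1r. Every gene of the mast cell, neutrophil, B cell, dendritic cell and T and NK cell marker lists stayed below 1 TPM, and the summed level of a list was at most 1.32 TPM. The mast cell list bears on Lilrb4a, which mast cells also express. Its sum was 0.52 and 0.47 TPM, with 5 of 6 markers at 0 and Kit alone detected.

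Lilrb4a (ENSMUSG00000112148.1, chr10:51490956-51496611, plus strand, mm10) was the most abundant of the receptors. Its level was 1556 and 1692 TPM, on 142331 and 76694 counts, with a mean of 1624 ± 96.3 (SD, n = 2). It ranked 3 by mean TPM among nuclear-encoded protein-coding genes. Lilr4b (ENSMUSG00000112023.1, chr10:51480632-51486703, plus strand), its upstream neighbour, was at 1293 and 1156 TPM, a mean of 1224 ± 97.2. It ranked 5. Within each library Lilrb4a was the higher, by 1.20-fold and 1.46-fold, and the ranges of the 2 genes did not overlap. Gene TPM adds up all transcripts of a gene, including some that cover only part of it. The order of these 2 genes therefore need not hold for each exon. In bulk RNA a gene carried by fewer cells and a gene with less RNA per cell cannot be told apart.

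Pirb (ENSMUSG00000058818.13, chr7:3711409-3720391, minus strand) followed at 257 and 213 TPM, a mean of 235 ± 31.02 and rank 73. Pira2 (ENSMUSG00000089942.9, chr7:3836812-3845051, minus strand) was at 25.9 and 37.4 TPM, a mean of 31.7 ± 8.08. The order Lilrb4a, Lilr4b, Pirb, Pira2 held in both libraries, and no neighbours in it had overlapping ranges. Lilr4b stood 5.03-fold above Pirb in replicate 1 and 5.42-fold in replicate 2. Pirb stood 9.91-fold above Pira2 in replicate 1 but 5.70-fold in replicate 2, so that step was the least even between libraries. Lilra5 (ENSMUSG00000070873.5, chr7:4237754-4243463, plus strand) had 0 counts in both libraries, which allows up to 0.102 and 0.169 CPM (counts scaled to library size). Lilra5 had 0 and 3 estimated counts in the other quantification, by kallisto. None of its 2079 overlapping 31-base windows occurs in another gene, so its reads could not have been booked elsewhere by shared sequence of that length.

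**Figure D1:**
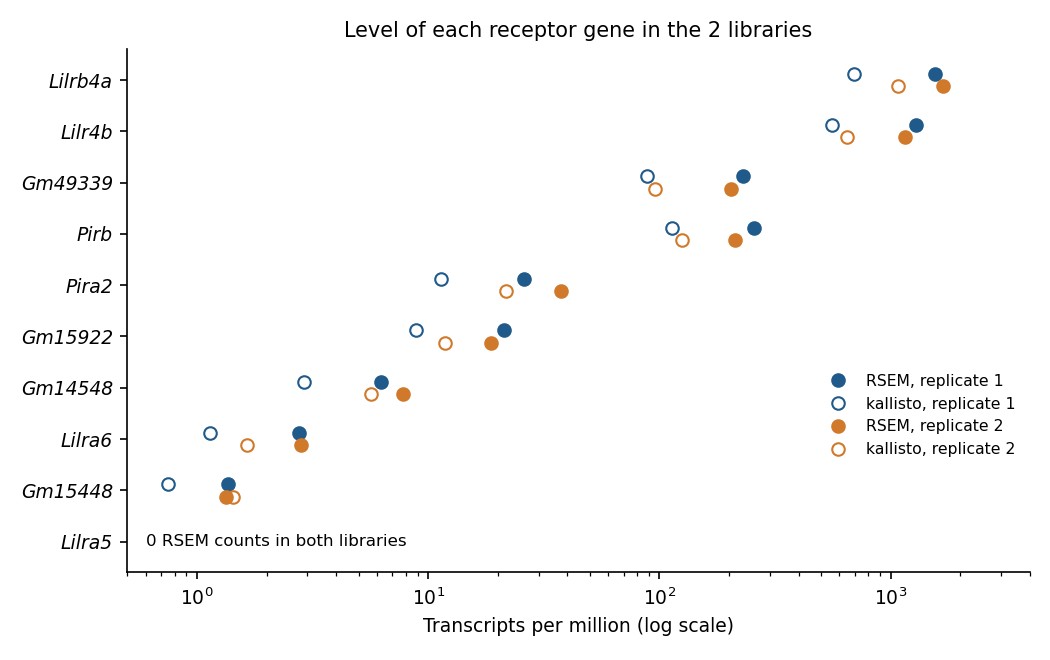
RSEM (filled) and kallisto (open) TPM on a log axis for the receptor genes and their neighbours, with replicate 1 in blue and replicate 2 in orange. Lilrb4a at 1556 and 1692 TPM and Lilr4b at 1293 and 1156 TPM lie above Pirb at 257 and 213 TPM, and Lilra5 has no RSEM counts.

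The 2 chromosome 10 receptors are near copies that end differently. Their coding sequences were identical at 96.0% of 910 aligned bases, but Lilrb4a-201 encodes 335 codons and Lilr4b-201 encodes 303. Exon 8 is 66 bases long in Lilrb4a and 68 bases in Lilr4b. It is shown because the reading frame of Lilr4b stops there, at the capitals TAA. In Lilrb4a the frame continues, and the capitals mark the tyrosine codon of an ITIM pattern.
Lilrb4a exon 8, chr10:51495994-51496059: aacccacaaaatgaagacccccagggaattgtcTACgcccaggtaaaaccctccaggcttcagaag
Lilr4b exon 8, chr10:51485713-51485780: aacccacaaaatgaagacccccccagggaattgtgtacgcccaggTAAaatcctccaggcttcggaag
Lilrb4a reads on into exon 9, whose coding part holds a further tyrosine codon of this kind.
Lilrb4a exon 9 coding part, chr10:51496167-51496244: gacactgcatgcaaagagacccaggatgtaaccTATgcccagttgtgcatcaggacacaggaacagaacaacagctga
The pattern searched was isoleucine, valine, leucine or serine 2 codons before a tyrosine codon and isoleucine, valine or leucine 3 codons after it. Lilrb4a-201 matched at codons 10, 300 and 322, counted from the start codon, and Lilr4b-201 matched at codon 10. The match at codon 10 lies in exon 1, at the other end of the protein from the tail.

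Pirb-201 (841 codons) had 4 matches, at codons 109, 713, 794 and 824, and 3 of them lie toward the end of its coding sequence. Pira2 (680 codons) and Lilra5 (295 codons) had 0 matches. The coding part of the last exon of Pirb is shown with the tyrosine codons of its 2 matches in capitals.
Pirb exon 15 coding part, chr7:3712651-3712830, minus strand: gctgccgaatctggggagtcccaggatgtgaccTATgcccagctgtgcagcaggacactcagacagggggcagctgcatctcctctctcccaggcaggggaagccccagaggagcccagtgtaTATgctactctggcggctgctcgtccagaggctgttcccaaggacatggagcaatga
Pirb and Pira2 were identical at 95.7% of 2043 aligned coding bases, and the coding sequence of Pirb-201 is the longer, at 2526 bases. Across the 2 chromosomes, with Lilra5 left out, identity of the aligned bases ranged from 70.7% (Lilr4b and Pira2) to 76.0% (Lilr4b and Pirb). Lilra5 had 63.5% with Lilrb4a, 64.3% with Lilr4b, 73.9% with Pirb and 73.3% with Pira2.

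Another annotated gene spans the chromosome 10 pair. Gm49339 (ENSMUSG00000062593.17, chr10:51480612-51496613, plus strand) is a read-through gene, annotated as protein-coding. Its main transcript, Gm49339-203, joins exon 1 of Lilr4b to exons of Lilrb4a. Of its 9 exons, 7 have the same start and end as exons of Lilrb4a-201, the spliced coding transcript of Lilrb4a. Gm49339 and the other genes with Gm names here were chosen by position or shared sequence after their values were seen. Gm49339 was at 231 and 204 TPM, a mean of 218 ± 18.6. Its range overlapped that of Pirb, which was the higher within each library. An antisense gene across Lilrb4a, Gm40645, was at 0.59 and 0.81 TPM, on 16 and 11.0 counts. An exon of Gm40645 lies opposite exon 6 of Lilrb4a, and whether counting used strand was not given, so this value is uncertain.

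Almost all spliced coding RNA over the exons of Lilrb4a was booked to Gm49339 and not to Lilrb4a. Gm49339-203 held 213 and 201.1 TPM, on 12719 and 6363 counts. The 4 protein-coding transcripts of Lilrb4a together held 0.71 and 0.73 TPM, and Lilrb4a-201 was listed at 0 by both quantifications. The 1381 bases of Lilrb4a-201 occur whole within the 1441 bases of Gm49339-203, which has 59 further bases before them and 1 after. Every 31-base window of Lilrb4a-201 is therefore also in Gm49339-203, and a read that lies within them fits both. A shorter coding transcript, Lilrb4a-212, lies whole within another Gm49339 transcript in the same way. How much of the 213 and 201.1 TPM is Lilrb4a mRNA and how much is joined RNA of both genes cannot be told apart from these tables. With Gm49339 added, Lilrb4a was at 1787 and 1897 TPM. The locus with all 3 genes was at 3080 and 3052 TPM, and took 0.990% and 0.812% of all gene counts.

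**Figure D2:**
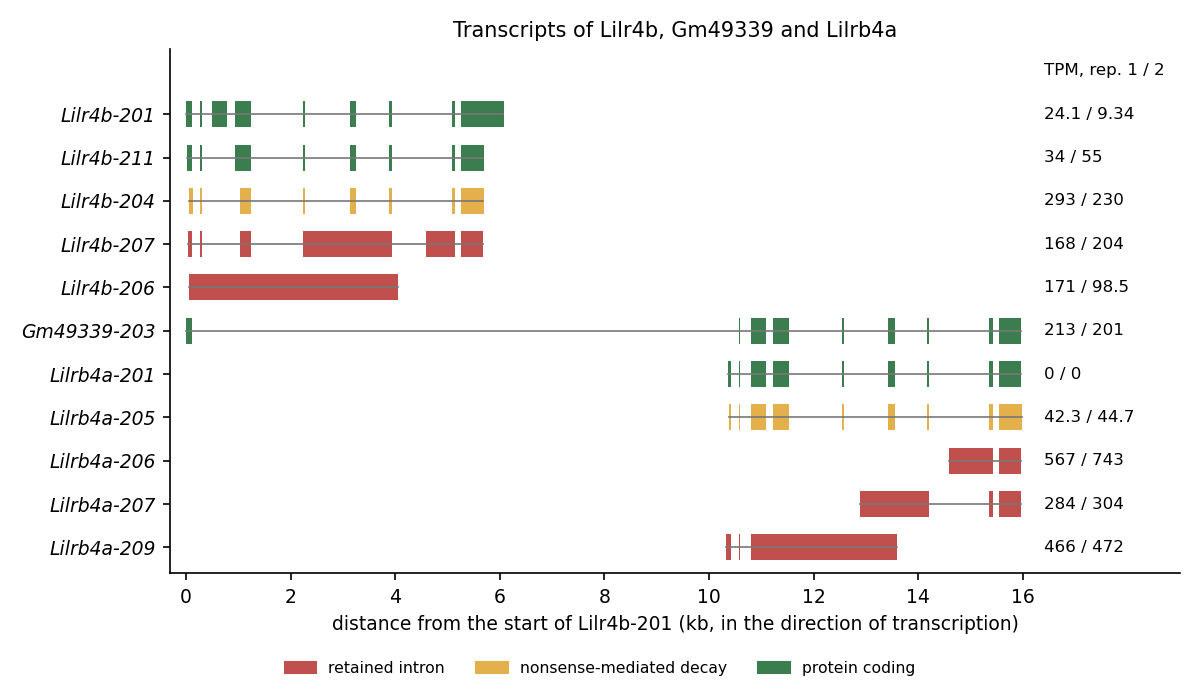
Exons (boxes) and introns (lines) of selected transcripts of Lilr4b, Gm49339 and Lilrb4a, by distance in kb from the start of Lilr4b-201, coloured by annotated class, with the RSEM TPM of replicates 1 and 2 at the right. Gm49339-203 at 213 and 201.1 TPM shares 7 exons with Lilrb4a-201, which is listed at 0.

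Most of the TPM of Lilrb4a, Lilr4b and Pirb lay on transcripts that the annotation classes as retaining an intron. For Lilrb4a such transcripts held 97.2% and 97.3%. A transcript marked for nonsense-mediated decay, the pathway that degrades RNAs with an early stop, held 2.72% and 2.64%. Coding transcripts of Lilrb4a held 0.0456% and 0.0431%. With Gm49339 added, an alternative chosen after the data were seen, the coding share was 12.6% and 10.7%, and the retained-intron share was 84.7% and 86.8%. The booking of shared reads thus moves the coding share of the Lilrb4a exons from near 0 to between 10.7% and 12.6%.

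Lilr4b divided its TPM more widely. Retained-intron transcripts held 66.7% and 69.0%, nonsense-mediated decay transcripts 27.7% and 24.9%, and coding transcripts 4.49% and 5.57%. For Pirb the retained-intron share was 86.8% and 78.2%, and its single coding transcript, Pirb-201, held the remaining 13.2% and 21.8%. Both transcripts of Pira2 are coding, so no split exists for it. By RSEM TPM the retained-intron shares of the 2 libraries lay within 9 percentage points of each other for each of these genes. By kallisto TPM those of Pirb lay further apart, at 91.0% and 80.9%.

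Over the 5520 genes that have both a coding and a retained-intron transcript and at least 1 TPM in both libraries, the median retained-intron share was 30.9%. Lilrb4a lay at the 99.8 percentile of these genes, Pirb at the 98.6 percentile and Lilr4b at the 93.8 percentile. By kallisto these were the 99.4, 97.0 and 92.8 percentiles. Among the 181 such genes of at least 100 TPM, none had a higher share than Lilrb4a. These ranks use the Lilrb4a share without Gm49339. With Gm49339 added it averaged 85.8%, in a range that overlapped that of Pirb, and was not ranked. The other myeloid receptors and macrophage markers that could be scored numbered 12, with a median of 16.1%. Csf1r, the receptor for colony-stimulating factor 1, had the lowest share at 1.501% ± 0.758. The highest was that of Clec4e, the activating receptor Mincle, at 70.4% and 62.3%, a range that overlapped that of Lilr4b but not those of Lilrb4a and Pirb. A read from unspliced RNA has only annotated transcripts to go to, so a share of this kind does not measure splicing.

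**Figure D3:**
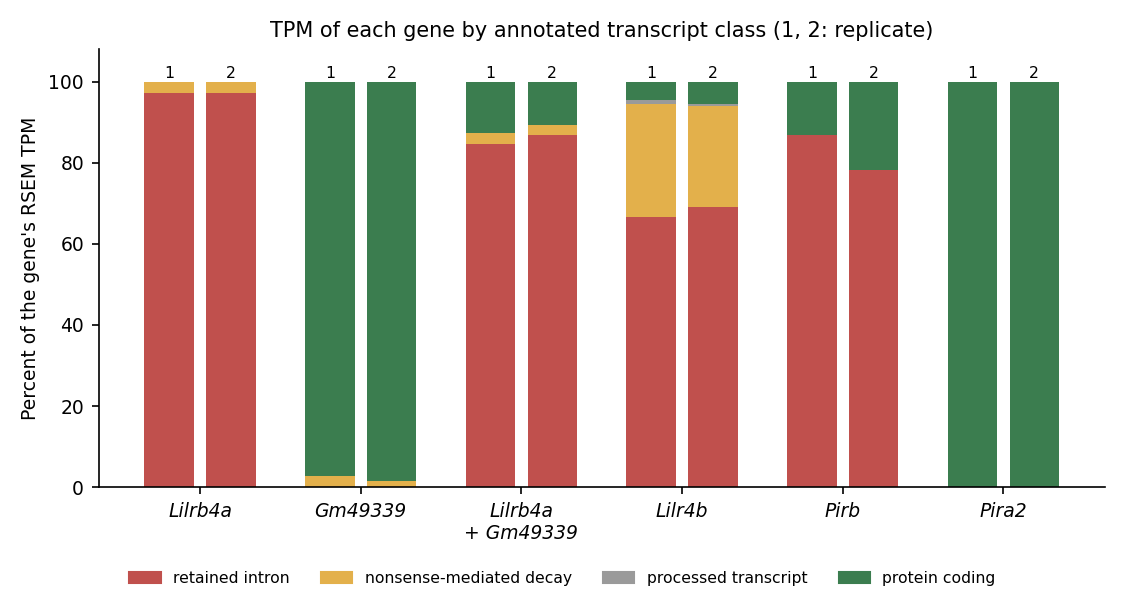
Percent of each gene's RSEM TPM on transcripts of each annotated class, with 1 bar per replicate. Retained-intron transcripts take 97.2% and 97.3% of Lilrb4a, and 84.7% and 86.8% once Gm49339 is added, whereas both Pira2 transcripts are coding.

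The retained-intron transcripts of Lilrb4a covered different parts of the gene. The highest, Lilrb4a-206, was at 567 and 743 TPM. It is 1279 bases long, begins inside intron 7 and runs through exons 8 and 9. Next came Lilrb4a-209 at 466 and 472 TPM, which holds introns 3, 4 and 5 whole and ends in intron 6. Lilrb4a-207, at 284 and 304 TPM, starts inside intron 5 and holds intron 6. In Lilr4b the leading transcript by RSEM was Lilr4b-204, of the nonsense-mediated decay class, at 293 and 230 TPM. Lilr4b-207, which holds introns 5 and 6, was at 168 and 204 TPM. Lilr4b-206, an unbroken stretch of 4004 bases over introns 1 to 6, was at 171 and 98.5 TPM. Of these 6 transcripts Lilr4b-206 differed by the largest ratio between the libraries, but kallisto listed it at 95.6 and 127 TPM, in the opposite order. By kallisto Lilr4b-204 was at 94.5 and 101.4 TPM, below Lilr4b-206 and below Lilr4b-210 at 95.7 and 112 TPM.

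Summing the TPM of the transcripts that cover each exon or intron gives a modelled depth, with Gm49339 counted where it shares an exon. By this depth Lilrb4a was not above Lilr4b at every exon. At exon 2 Lilrb4a was at 908 and 817 TPM and Lilr4b at 1226 and 1086 TPM. At exon 8 Lilrb4a was at 1274 and 1386 TPM and Lilr4b at 983 and 881 TPM. The introns of Lilrb4a together stood at 47.5% of the depth of its exons in replicate 1 and 49.4% in replicate 2. Those of Lilr4b stood at 50.4% and 49.1%, so the ranges of these neighbours overlapped. By kallisto the values were 49.6% and 52.3% for Lilrb4a and 53.4% and 56.5% for Lilr4b, which did not overlap. The introns of Pirb stood at 7.56% and 6.73%. Retention in Pirb was annotated at introns 1, 6 and 7 alone, and its intron 6, of 227 bases, reached 213 and 162 TPM. The exons on either side of it were at 257 and 213 TPM. In Lilrb4a the deepest intron by RSEM was intron 5, of 856 bases, at 843 and 793 TPM. In Lilr4b it was by mean also intron 5, of 857 bases, at 674 and 571 TPM. That range overlapped that of intron 3 of Lilr4b at 614 and 515 TPM, which was the lower within each library. By kallisto intron 7 of Lilrb4a, at 257 and 446 TPM, had a higher mean than its intron 5, at 289 and 374 TPM, with overlapping ranges. Intron 8 of both genes was at 0, since no annotated transcript covers it.

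**Figure D4:**
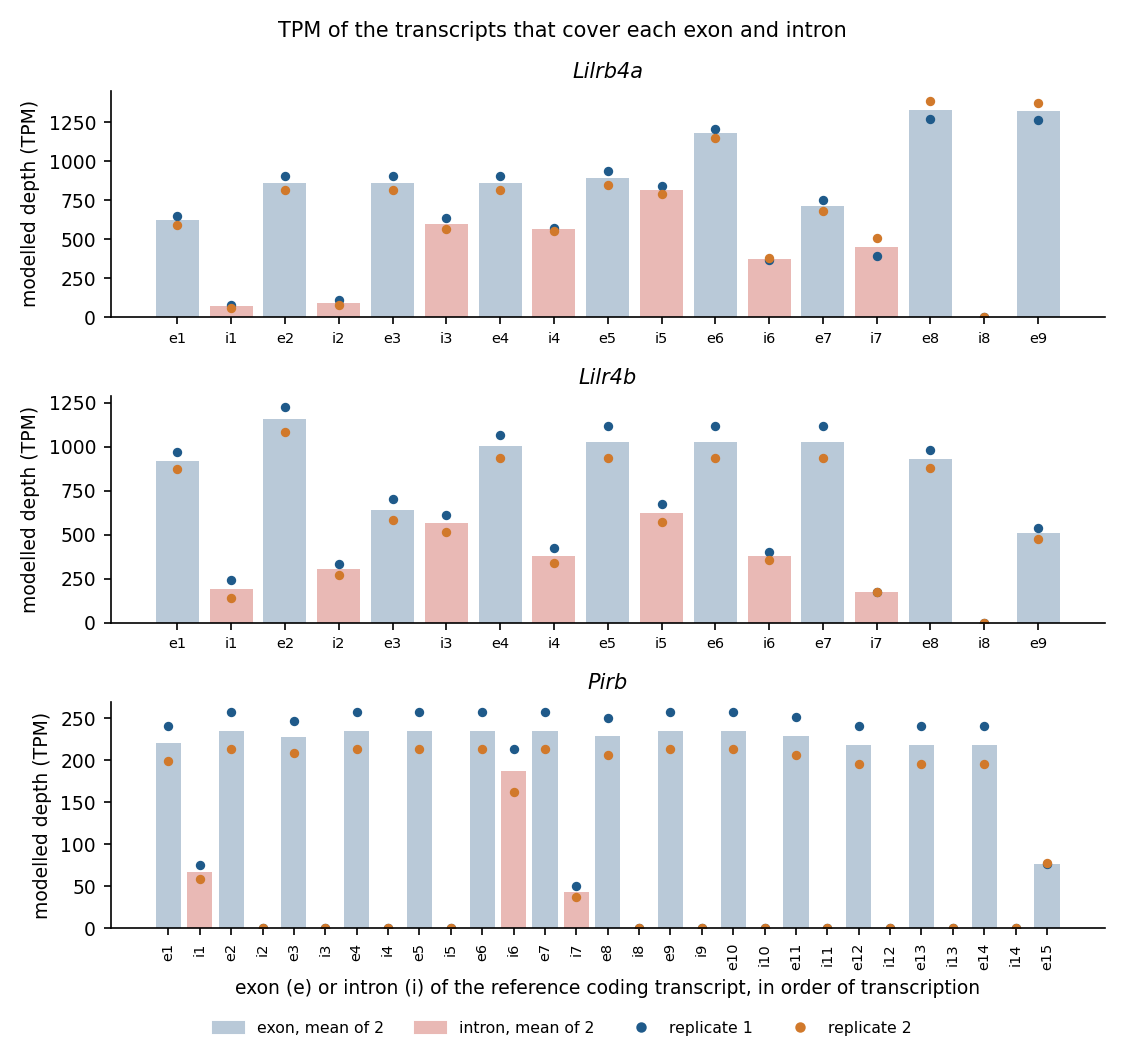
Modelled depth in TPM of each exon (blue bars) and intron (pink bars) of the reference coding transcripts in order of transcription, as the mean of 2 libraries, with points for replicate 1 (blue) and replicate 2 (orange). Intron 5 of Lilrb4a is at 843 and 793 TPM, and in Pirb intron 6 at 213 and 162 TPM lies above introns 1 and 7, with the other introns at 0.

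Exon 1 of the chromosome 10 pair ends at either of 2 donor sites 5 bases apart. The sequence is shown because all 54 bases around them, from the start codon into intron 1, are identical in both genes. The capitals mark the GT of the coding donor and then the GT of the donor 5 bases beyond it.
Lilrb4a exon 1 donor, chr10:51491018-51491071: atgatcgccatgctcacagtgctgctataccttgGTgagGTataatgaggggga
Lilr4b exon 1 donor, chr10:51480720-51480773: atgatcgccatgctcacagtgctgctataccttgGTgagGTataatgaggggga
Of the TPM of Lilrb4a transcripts that use either site, the donor 5 bases on held 90.6% and 97.1%. In Lilr4b it held 60.6% and 56.7%, and 49.2% and 46.8% when the read-through transcripts of Gm49339, which leave from the coding donor, were included. The Lilrb4a share does not include Gm49339. If part of the Gm49339 reads came from Lilrb4a, its share at this donor would be lower. All these shares add whole transcripts by their annotated exon 1 end, and no reads across the junction were counted. Of the 557 and 557 TPM of Lilrb4a at the donor 5 bases on, Lilrb4a-209, a retained-intron transcript, held 466 and 472 TPM. The shares thus depend on how reads from introns were assigned, and do not measure donor use. The nonsense-mediated decay transcripts Lilrb4a-205 and Lilr4b-204 both use the donor 5 bases on.

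Pira2 and the other genes of the chromosome 7 cluster share much of their sequence. Of the 31-base windows of Pira2, 96.7% occur in another gene, and 88.1% occur in Gm15922, a polymorphic pseudogene that overlaps the RefSeq gene Pira1. Gm15922 was at 21.2 and 18.7 TPM. In replicate 1 Pira2 exceeded it 1.22-fold and in replicate 2 by 2.00-fold, so the split between these copies is uncertain. The 2 together were at 47.1 and 56.1 TPM. Pirb shares 43.8% of its windows with other genes, but these number 1482, so this is not sharing within the cluster alone. The largest share with a single gene was 23.7%, with Gm14548. Pirb stood 12.1-fold above Gm15922 in replicate 1 and 11.4-fold in replicate 2, a steadier ratio than that to Pira2.

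Other genes of the cluster were low. Lilra6, for which Pira3 is a synonym, was at 2.75 and 2.81 TPM. Gm14548 was at 6.22 and 7.75 TPM, Gm15448 at 1.36 and 1.34 TPM, and Gm10693 at 0.53 and 0.50 TPM. Gm15930 was listed at 0 in both libraries, and Gm15925 at 0 and 0.06 TPM. Pirb was thus the most abundant gene of the chromosome 7 cluster in both libraries.

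Pirb and Pira2 also resemble each other upstream. The RefSeq tables for GRCm38 held promoter windows for 4 of the 5 genes, Lilr4b, Pirb, Pira2 and Lilra5. Where the windows of Pirb and Pira2 overlapped, 217 of 222 upstream bases were identical (97.7%). They are shown for 88 bases around the motif GAGGAAGT, a core that the macrophage factor PU.1 binds, in capitals.
Pirb upstream, chr7:3720455-3720542, minus strand: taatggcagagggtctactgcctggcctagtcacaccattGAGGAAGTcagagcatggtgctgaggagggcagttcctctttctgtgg
Pira2 upstream, chr7:3845152-3845239, minus strand: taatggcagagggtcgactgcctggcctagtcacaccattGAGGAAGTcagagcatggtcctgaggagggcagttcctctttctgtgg
The motif, searched on both strands in the 250 bases before the start, was also in the windows of Lilra6 and Pira1 and not in those of Lilr4b and Lilra5. It occurs in 802 of 32851 promoter windows of that length, or 2.44%. A match is a run of letters and not a measured site. Genes with this stretch ranged in level from Lilra6 at 2.78 ± 0.0424 TPM to Pirb at 235 ± 31.02 TPM.

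The replicates were compared as the log2 ratio of replicate 2 over replicate 1 of counts scaled by the TMM method, which equalises libraries on most genes. Past a 2-fold difference lay 13.5% of 14831 genes, 7.16% higher and 6.34% lower in replicate 2, and 0 of the 4 receptor genes tested. By kallisto counts 16.7% of genes lay past it and without a filter on counts 32.2%, and again none of these 4 receptors. Scaled CPM of Lilrb4a were 5179 and 4030, a log2 ratio of -0.36 with a counting interval of -0.37 to -0.35. Those of Lilr4b were 4909 and 3220, a ratio of -0.61 (-0.62 to -0.59). Pirb was at 1303 and 847, also at -0.62 (-0.65 to -0.59). These 3 genes were thus lower in replicate 2 by scaled counts, although Lilrb4a was higher there in TPM as deposited. Pira2 was at 146 and 162, a ratio of 0.15 (0.08 to 0.21), and Gm15922 was at -0.56 (-0.65 to -0.48). Summed with Gm15922, Pira2 was at -0.14 (-0.19 to -0.08), the opposite sign. Scaled by library totals instead, Pira2 was at 0.34 and the sum at 0.06 (0.01 to 0.11), so the sign of the sum depends on the scaling. The median of all genes tested was -0.02. Intervals are exact binomial 95% intervals and cover counting error only.

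The 2 quantifications gave the same order of the receptors at different scales. By kallisto Lilrb4a was at 698 and 1082 TPM, Lilr4b at 557 and 651 TPM, Pirb at 113 and 125 TPM and Pira2 at 11.3 and 21.8 TPM. After TPM were rescaled to sum over protein-coding and long intergenic RNA genes, 8.14% of 8505 protein-coding genes differed more than 2-fold between quantifications, and 0 of these 4 did. The log2 ratio of kallisto over RSEM was -0.18 for Lilrb4a, -0.30 for Lilr4b, -0.26 for Pirb and -0.27 for Pira2, beside a median of 0.12 over all those genes. For Gm49339 it was -0.52, at the 0.976 percentile. Among Lilrb4a, Lilr4b and Gm49339, the read-through gene Gm49339 was thus the one on which the quantifications differed most. Its sequence is 96.1% shared with Lilrb4a, but whether this sharing underlies the difference was not tested. The antisense gene Gm40645 is not protein-coding and was left out of this comparison. Its level was higher by kallisto, at 1.20 and 1.99 TPM, than by RSEM, at 0.59 and 0.81 TPM.

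Signalling partners of the inhibitory receptors were all detected. Of the 8 phosphatase and adaptor genes, 8 reached 1 TPM in both libraries, and their median was 12.9 TPM, beside 38.6% of all protein-coding genes and a median of 0.22 TPM. Ptpn6, which encodes SHP-1, led at 56.4 and 38.1 TPM. Csk, a kinase that restrains Src kinases, was at 25.5 ± 0.778, Inpp5d (SHIP-1) at 16.2 ± 1.68 and the related Inppl1 at 14.1 ± 2.55. The adaptor genes Dok3 at 6.26 ± 1.17 and Dok2 at 3.04 ± 0.658 were lowest. In both libraries Lilrb4a and Pirb stood above every gene of this list.

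Of 12 adaptor and kinase genes used by activating receptors, 11 passed 1 TPM in each library, and their median was 38.9 TPM. Fcer1g, the Fc receptor gamma chain with which Pira receptors pair, was at 261 and 366 TPM. The kinase genes Syk and Lyn were at 262 ± 0.856 and 81.8 ± 12.4 TPM. Tyrobp, the adaptor DAP12, was at 66.3 ± 4.43. Hcst at 1.10 ± 0.0354 and Fgr at 0.60 ± 0.127 were lowest. The gamma chain gene thus lay above Pira2 in both libraries.

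Genes of described ligands were uneven, with 7 of 10 at 1 TPM or more in both libraries and a median of 29.3 TPM. The class I genes H2-K1 and H2-D1 were at 2378 ± 43.7 and 1195 ± 251 TPM, and B2m, which encodes their light chain, at 394 and 757 TPM. Rtn4, the gene of Nogo, was at 56.1 ± 9.91. At the low end were Itgb3, the β3 integrin chain, at 0.275 ± 0.0495, and Fn1, fibronectin, at 0.10 ± 0.0849. H2-K1 was the gene of these lists that exceeded Lilrb4a in both libraries.

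Among other inhibitory myeloid receptors all 11 passed 1 TPM in each library, and their median was 18.7 TPM. Sirpa, the receptor for CD47, led at 671 and 621 TPM, followed by the inhibitory Fc receptor gene Fcgr2b at 303 and 252 TPM. Clec12a was at 66.8 ± 13.7 and Cd300lf at 31.6 ± 14.3, and Cd200r1 at 9.62 ± 3.52 and Cd300a at 8.65 ± 2.25 were lowest. Lilrb4a and Lilr4b exceeded each of these. Pirb overlapped in range with Fcgr2b but was the lower of the 2 within each library. Among other activating receptors 11 of 15 passed 1 TPM in each library, and the median was 5.59 TPM. Clec4e led at 537 and 561 TPM, followed by Fcgr1 at 59.4 ± 21.7, Trem2 at 52.2 ± 2.05 and Fcgr4 at 21.7 ± 1.97. Trem1 at 0.08 ± 0.0990 and Oscar at 0.06 ± 0.0141 were lowest. Pira2 lay between Trem2 and Fcgr4 by mean TPM.

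**Figure D5:**
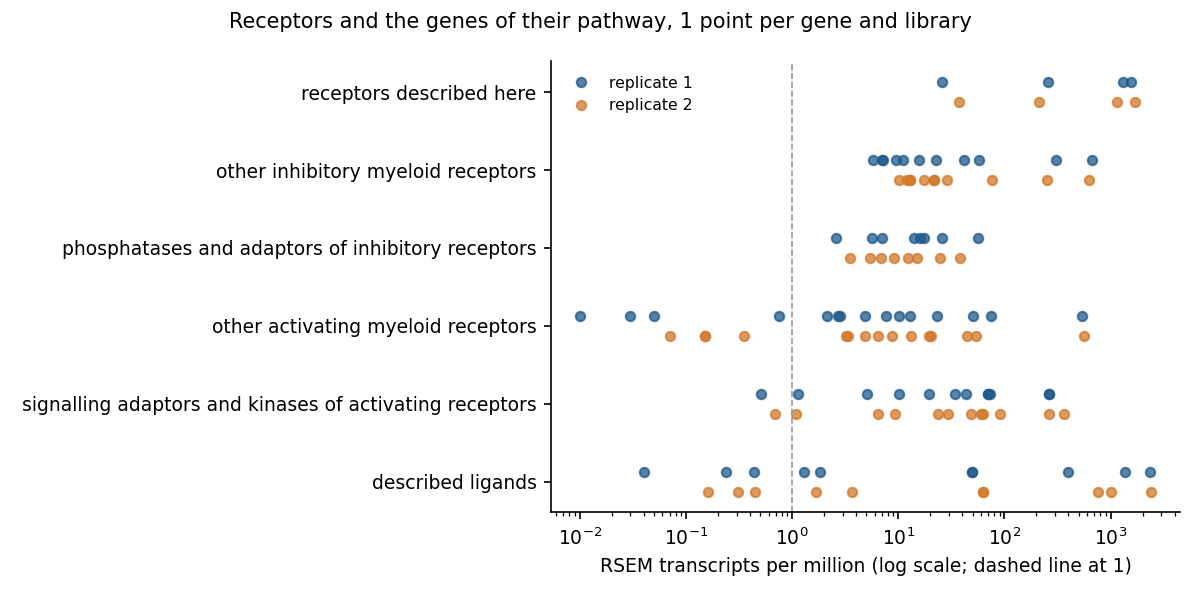
RSEM TPM on a log axis for the 4 detected receptors and for the genes of 5 pathway lists, with 1 point per gene and library (replicate 1 blue, replicate 2 orange) and a dashed line at 1 TPM. By gene TPM, which includes retained-intron transcripts, Lilrb4a and Lilr4b lie above every gene listed under other inhibitory myeloid receptors. Of those, Sirpa at 671 and 621 TPM is highest.

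The protein-coding genes closest in level to each receptor were found by Euclidean distance over log2(TPM + 1) in the 2 libraries. For Lilrb4a these were mt-Nd4l, Lilr4b and Gpnmb, at distances of 0.36, 0.61 and 0.64. Closest to Lilr4b were the chemokine gene Ccl5, H2-D1 and the ferritin gene Fth1, at 0.18, 0.20 and 0.22. Pirb was closest to the chemokine gene Ccl7, Slfn2 and Rbm39, at 0.10, 0.10 and 0.11. With 2 libraries this compares levels and not patterns of change.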

How the data were processed

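The 2 libraries, each in tables of its own, were analysed as 1 group of 2 replicates. Per the labels the assembly is mm10, and the transcript names in the tables match GENCODE M21. Which aligner and software versions were used, and whether reads were counted by strand, was not given in the sources used here. The authors' deposited tables give, per the file headers, expected counts, TPM and FPKM for each gene and transcript with the column names of RSEM, and for each transcript its percent of the gene's TPM. The kallisto tables, also deposited, give estimated counts and TPM per transcript, which were summed per gene here. Per the file headers, TPM is scaled over all rows. TPM were rescaled over protein-coding and long intergenic RNA (lincRNA) genes to compare the quantifications, and over protein-coding and all long non-coding RNA genes for the alternative levels. Rows that name no gene (0.766% and 0.272% of expected counts) were left out of library sizes and ratios.

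The 5 genes, the pathway and marker lists and the named-gene rule were chosen with earlier results of these data known. Named were the 5 receptors, other Lilr or Pir genes, the 4 highest and 2 lowest genes of each pathway list, the 3 highest markers of a list, and the 3 genes nearest in level to Lilrb4a, Lilr4b and Pirb. Genes with Gm names fall outside this rule. Marker lists with no gene at 1 TPM are given by their summed level.

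Expected counts were rounded, and ratios used TMM factors of edgeR 4.0.16 (0.935 and 1.07), a prior count of 0.5 and a mean count of 10 or more per gene. In simulated data for the comparison of replicate 2 with replicate 1, 200 of 200 genes changed 4-fold were recovered past 2-fold among 14825 genes. The simulated counts held counting error only, and the changed genes were taken from well-counted ones. Recovery was therefore near certain: it checks the calculation and not the spread between real libraries. With 1 group, no test between conditions was possible and no p-value was computed. Alternatives were kallisto values, FPKM, rescaled TPM, DESeq2 1.42.0 size factors, library totals, another prior count, no count filter, a minimum of 5 TPM and each library alone. Transcript structures and sequences came from GENCODE M21, and upstream windows from RefSeq. Global alignments used Biopython 1.88. No molecular identifiers are described, so intervals and floors cover counting error only.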

Additional observations from a re-analysis of the deposited data

How the results depend on the processing

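The order of the receptors by mean level was the same under kallisto TPM, FPKM and TPM rescaled over protein-coding and long non-coding RNA genes, but with rescaling the ranges of 1 neighbouring pair, Lilrb4a and Lilr4b, overlapped. By kallisto the mean levels were 890 TPM for Lilrb4a, 604 for Lilr4b, 119 for Pirb, 16.6 for Pira2 and 0.0113 for Lilra5. Rescaled TPM gave 5629, 4310, 833 and 107 for the first 4, and FPKM gave 2513, 1906, 367 and 48.6. These units differ in scale by construction, and rescaling did not change both libraries by the same factor. Protein-coding genes summed to 204010 TPM in replicate 1 and 303496 TPM in replicate 2. Rescaled, Lilrb4a was at 6287 and 4972 TPM, lower in replicate 2, against 1556 and 1692 TPM as deposited. Pirb was at 833 ± 292 rescaled, against 235 ± 31.02. The direction and spread between libraries thus depend on the unit.

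The retained-intron share of Lilrb4a was 97.3% on average, 98.8% by kallisto, 98.3% by expected counts and 85.8% with Gm49339 added. That of Lilr4b was 67.9%, 74.8% by kallisto and 85.0% by expected counts, and that of Pirb moved by less than its spread. Genes past 2-fold between the replicates numbered 2002 (13.5% of 14831), 4000 by kallisto counts (16.7% of 23904) and 7212 without a count filter (32.2% of 22426), where low counts enter. None of the receptors passed 2-fold under any of the 5 alternatives for the ratio, but the log2 ratio of Pira2 was -0.12 by kallisto counts against 0.15. At a minimum of 5 TPM, 7 of 15 other activating receptors counted as detected, beside 21.5% of all protein-coding genes.

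No paired analysis was possible because the libraries form 1 group. With 2 libraries the SD is itself poorly known, and at this depth Lilra5 is limited only to the floors given.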
